A study of Mus musculus with 3 samples.

Results

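Tumor necrosis factor (TNF) superfamily ligands are surface or secreted proteins through which T cells speak to neighboring cells, and 7 genes of this family were followed here: Tnfsf4, Tnfsf8, Tnfsf9, Tnfsf11, Cd40lg, Cd70 and Lta. They are 7 of the 33696 genes in the count matrices and were picked by name, with their levels in these libraries already known, so that every value below is a description and none is a test. They were read in 5 populations: CD8 T cells, Foxp3-negative CD4 T cells, Foxp3-positive T cells, cycling T cells and natural killer (NK) cells, which together held 27599 of 71909 cells. The cells came from tumors of KP1, a mouse small cell lung cancer line that lacks Rb and p53, grown under the skin of wild-type F1 mice (B6129SF1/J) after injection of 500000 cells. Doses of 3 µg of cytokine were given on alternate days between days 7 and 19 after injection, and on the last day live CD45+ cells were sorted from the tumors and sequenced with droplet 3′ chemistry. The first library came from mice given mono-IL-10, a monomeric IL-10 labeled Supermono-10. The second came from mice given the Trikine, which joins mono-IL-10 to an IL-2-derived arm that recruits IL-2Rβ. The Combination library came from mice given the Trikine with a PD-1 antibody at doses of 200 µg. The protocol text, which all 3 samples share, mentions the antibody without saying which groups received it. The title and the treatment label of the Combination alone include it, as do the group names in the study's methods, and this was followed. Each group was 1 library, the number of mice in each was not stated in the labels, and no untreated library was analysed here. Differences between libraries therefore carry no test, p-value or standard error, and a difference between treatments cannot be told apart from a difference between these libraries.

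TNF superfamily ligands act mostly as trimers that cluster their receptors, which then recruit TRAF adaptors and start NF-kB signaling. CD40 ligand, encoded by Cd40lg, is the signal by which helper T cells license dendritic cells and B cells. RANKL, encoded by Tnfsf11, is best known from bone and lymph node development, and activated CD4 T cells also make it for dendritic cells that carry RANK. OX40 ligand (Tnfsf4), CD30 ligand (Tnfsf8), 4-1BB ligand (Tnfsf9) and CD70 (Cd70) are costimulatory ligands for OX40, CD30, 4-1BB and CD27, receptors that T cells can carry. Lymphotoxin alpha (Lta) is secreted and binds the TNF receptors, or joins lymphotoxin beta at the cell surface to bind the lymphotoxin beta receptor.

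The gene starts of 3 of the 7 members were in the RefSeq promoter table used here (GRCm38.p6) and are shown because all 3 genes were highest in Foxp3-negative CD4 cells among the 5 populations in every library and their levels between libraries are followed below. Each runs from 250 bases before to 50 bases after the annotated start, on the minus strand and 5′ to 3′: Tnfsf8 at chr4:63861235-63861534, Tnfsf11 at chr14:78307994-78308293 and Lta at chr17:35205302-35205601. Capitals mark matches, on either strand, to 4 letter patterns: GGGNNNNNCC for NF-kB, TTCNNNGAA for STAT, GGAAA for NFAT and TGANTCA for AP-1.
Tnfsf8: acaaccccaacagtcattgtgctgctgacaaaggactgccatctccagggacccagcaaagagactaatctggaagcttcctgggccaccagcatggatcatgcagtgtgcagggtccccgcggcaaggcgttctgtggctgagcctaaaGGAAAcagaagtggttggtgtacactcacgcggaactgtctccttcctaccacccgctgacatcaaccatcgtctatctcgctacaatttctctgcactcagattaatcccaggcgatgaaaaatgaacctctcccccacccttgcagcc
Tnfsf11: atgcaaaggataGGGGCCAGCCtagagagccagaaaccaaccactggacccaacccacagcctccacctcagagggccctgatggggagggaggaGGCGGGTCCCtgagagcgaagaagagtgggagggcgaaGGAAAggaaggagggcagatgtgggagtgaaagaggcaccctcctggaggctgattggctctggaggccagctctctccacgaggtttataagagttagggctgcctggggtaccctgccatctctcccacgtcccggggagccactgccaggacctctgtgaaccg
Lta: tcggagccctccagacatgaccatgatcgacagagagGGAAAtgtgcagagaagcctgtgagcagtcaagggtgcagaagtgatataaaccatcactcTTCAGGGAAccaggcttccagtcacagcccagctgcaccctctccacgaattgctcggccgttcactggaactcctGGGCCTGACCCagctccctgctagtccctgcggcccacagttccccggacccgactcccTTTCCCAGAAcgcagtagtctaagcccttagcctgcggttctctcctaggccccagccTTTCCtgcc
The Tnfsf8 window held 1 NFAT match and no match to the other patterns. The Tnfsf11 window held 2 NF-kB matches and 1 NFAT match. The Lta window held 2 STAT matches, 3 NFAT matches and 2 overlapping NF-kB matches, and 1 of its NFAT matches overlapped a STAT match. None of the 3 windows held the AP-1 pattern. Among 32851 mouse promoter windows of the same length, 50.8% held the NF-kB pattern, 8.30% the STAT pattern, 61.3% the NFAT pattern and 7.81% the AP-1 pattern, so that a match to NF-kB or NFAT letters is common. These matches describe letters and not binding.

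The 3 libraries held 158570946 (mono-IL-10), 197176873 (Trikine) and 175794959 (Combination) UMIs, or unique molecular identifiers, and 22235, 22707 and 26967 barcodes passed the filters. A level in CPM counts the gene's UMIs in every 1000000 UMIs summed over a population and is printed with a 95% Poisson interval in brackets that covers counting error only, since UMIs of a cell are not independent. The CD8 gate held 3419, 2663 and 3516 cells in that library order, the Foxp3-negative CD4 gate 1288, 1177 and 2307, the Foxp3-positive gate 146, 382 and 377, the cycling gate 1803, 4031 and 3366, and the NK gate 624, 1011 and 1489. Cycling T cells were deeper, with a median of 9527 to 12506 UMIs against 3087 to 3905 in CD8 cells, and the gate itself asked for proliferation UMIs. Defining genes followed the gates: Cd3e was at 481 CPM or more in every T cell population, and Ncr1, an NK receptor, was at 564 CPM or more in NK cells and at 6.85 CPM or less in T cells. The Foxp3-negative CD4 cells were spread over clusters in different shares. The cluster led by Foxp3, Tnfsf8 and Izumo1r held the most of them in each library, at 28.7%, 60.8% and 42.6%, and the cluster led by Ccl1, Ermn and Csf1 held 19.6%, 20.2% and 38.4%. A cluster led by Dapl1 and the heat shock chaperone genes Hspa1b and Hspa1a held 19.95%, 4.16% and 2.95% of the CD4 cells and 16.6%, 1.80% and 1.48% of the CD8 cells. The cluster led by Cd8a, Cd8b1 and Ccl5 held 40.0%, 59.9% and 57.8% of the CD8 cells. These shifts accompany the ratios between libraries, and their part in them was not tested. Levels within clusters are given below for Tnfsf8, Tnfsf4 and Lta in CD8 cells. In CD4 cells they are given for Tnfsf8, Tnfsf4 and Cd40lg, and not for Tnfsf9 or Lta. Because Tnfsf8 itself leads a cluster, its ratio between libraries was also read in cells gated per cell without clusters. In the CD4 cells it was then 1.75 for the Trikine over mono-IL-10 and 0.592 for the Combination over the Trikine, against 1.62 and 0.603 with the clusters. Il2ra, the IL-2 receptor alpha chain, stood at 52.3, 196 and 160 CPM in the Foxp3-negative CD4 cells, and Ikzf2, a transcription factor frequent in regulatory T cells, at 451, 775 and 878 CPM, so that cells whose Foxp3 RNA was not captured may be counted there, and their part in the CD4 values was not tested. A cluster led by Klra6, Klra5 and Trgc4 (430, 3473 and 1750 cells) kept no name and is outside the 5 populations. The libraries shared 137 to 180 barcodes pairwise, and 7 barcodes were in all 3.

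Foxp3-negative CD4 cells were the highest of the 5 populations in 17 of the 21 member and library combinations, and the other 4 were highest in cycling T cells (Tnfsf4 in all 3 libraries and Cd70 in the Combination). No member was highest in CD8, Foxp3-positive or NK cells. Of the 84 neighbors in the order of levels, 46 had a ratio whose interval excluded 1, and 38 did not differ beyond counting error. The latter included the top place of Tnfsf9 with mono-IL-10, at 1.48 (0.934 to 2.47), and of Cd70 in every library. The top place of Tnfsf4 was separated only with mono-IL-10. The share of all genes highest in Foxp3-negative CD4 cells was not computed, so the 17 is not set against a background.

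**Figure D1:**
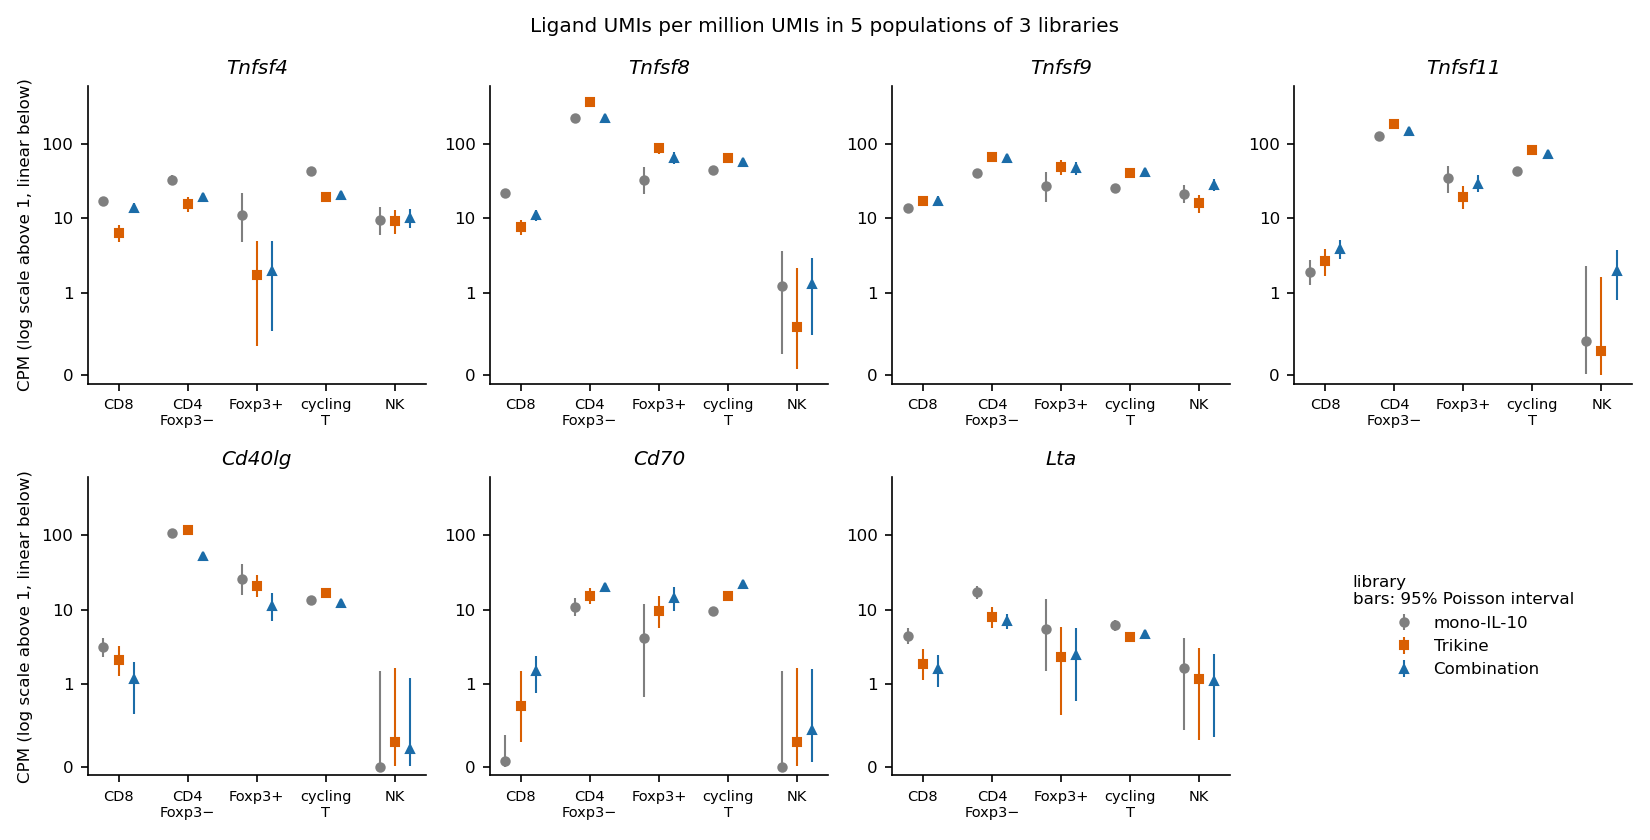
Level of each ligand in 5 populations of the 3 libraries, in CPM on a scale that is logarithmic above 1 and linear below, with 95% Poisson intervals as bars. Tnfsf8, Tnfsf11 and Cd40lg stand far higher in Foxp3-negative CD4 cells than in CD8 or NK cells in every library. Tnfsf4 is highest in cycling T cells, beyond counting error only with mono-IL-10.

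Cd40lg, the licensing ligand, was a CD4 transcript in these tumors. In Foxp3-negative CD4 cells it reached 107 CPM (98.6 to 116) with mono-IL-10, 117 (107 to 127) with the Trikine and 53.4 (49.2 to 58.0) in the Combination, while CD8 cells held 3.13, 2.10 and 1.18 CPM. Foxp3-positive cells lay between, at 26.0, 21.1 and 11.2 CPM, and cycling T cells at 13.7, 16.7 and 12.2 CPM. These intermediate populations could not be ordered in the Trikine and Combination libraries, where their ratios were 1.27 (0.886 to 1.76) and 1.08 (0.715 to 1.72). NK cells held 0, 1 and 1 Cd40lg UMIs, which is at or under the floor of 3 counts.

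Tnfsf8, which encodes CD30 ligand, was at 226 CPM (213 to 239), 366 (349 to 384) and 221 (212 to 230) in Foxp3-negative CD4 cells. The Trikine library stood above the others, which did not differ beyond their intervals. In CD8 cells the order of the libraries was another, with 22.0 CPM (19.6 to 24.5) in mono-IL-10, 7.55 (5.91 to 9.51) in the Trikine and 11.0 (9.21 to 13.1) in the Combination. Foxp3-positive cells held 32.9, 87.3 and 65.0 CPM, and cycling T cells 44.9, 65.6 and 56.8 CPM. NK cells held 3, 2 and 6 UMIs, a level of at most 1.32 CPM.

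Tnfsf11, which encodes RANKL, followed Foxp3-negative CD4 cells as closely. Its level there was 127 CPM (118 to 137), 185 (173 to 198) and 147 (140 to 155). CD8 cells held 1.91, 2.62 and 3.87 CPM and NK cells at most 1.98 CPM. Cycling T cells came next to the CD4 cells, at 42.5 CPM (39.8 to 45.4), 81.5 (79.3 to 83.8) and 72.7 (70.2 to 75.2), and Foxp3-positive cells held 34.3, 19.4 and 29.3 CPM. The cycling and Foxp3-positive values did not differ beyond counting error with mono-IL-10, where the ratio was 1.24 (0.836 to 1.93).

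Tnfsf9, which encodes 4-1BB ligand, was the only member with at least 50 UMIs in NK cells of every library. Foxp3-negative CD4 cells held 40.6 CPM (35.3 to 46.4), 67.6 (60.4 to 75.4) and 64.2 (59.5 to 69.1). Foxp3-positive cells held 27.4, 48.5 and 46.9 CPM, cycling T cells 25.3, 40.1 and 42.3, CD8 cells 13.7, 17.3 and 17.2, and NK cells 21.4, 15.9 and 28.0. In the mono-IL-10 library the first 4 populations in the order, CD4, Foxp3-positive, cycling and NK, had neighbors that did not differ beyond counting error.

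Tnfsf4, which encodes OX40 ligand, was highest in cycling T cells, at 43.4 CPM (40.6 to 46.3), 19.2 (18.1 to 20.3) and 20.8 (19.5 to 22.1). Foxp3-negative CD4 cells held 32.8 CPM (28.1 to 38.1), 15.6 (12.2 to 19.6) and 19.2 (16.7 to 22.0), close enough that the cycling cells exceeded them beyond counting error only with mono-IL-10, with a ratio of 1.32 (1.12 to 1.57). CD8 cells held 16.9, 6.29 and 13.7 CPM and NK cells 9.45, 9.12 and 10.1 CPM. Foxp3-positive cells held 8, 3 and 4 UMIs.

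Cd70, the ligand of CD27, was low throughout. Foxp3-negative CD4 cells held 11.0 CPM (8.35 to 14.2), 15.4 (12.0 to 19.3) and 20.4 (17.8 to 23.2), and cycling T cells 9.57 (8.31 to 11.0), 15.3 (14.4 to 16.3) and 22.0 (20.6 to 23.4). These populations did not differ beyond counting error in any library. CD8 cells held 1, 7 and 18 UMIs and NK cells 0, 1 and 2. Lta was highest in Foxp3-negative CD4 cells, at 17.2 CPM (13.9 to 21.2), 8.0 (5.66 to 11.0) and 6.98 (5.50 to 8.73). Cycling T cells held 6.21, 4.36 and 4.65 CPM of Lta and CD8 cells 4.49, 1.89 and 1.60 CPM, and the mono-IL-10 library was highest in both.

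Shares of cells with a UMI were read after each cell was thinned to 1000 UMIs, and the share without thinning is given with it. Tnfsf8 was found in 9.98%, 21.0% and 13.9% of Foxp3-negative CD4 cells (21.3%, 36.3% and 25% unthinned). Tnfsf11 was found in 6.27%, 10.6% and 8.91% (16.1%, 22.5% and 19.0% unthinned) and Cd40lg in 10.2%, 9.88% and 5.88% (22.9%, 29.7% and 17.5% unthinned). The background was read in neutrophil-like cells, which were taken to lack these genes and had a median depth of 2036, 1326 and 1405.5 UMIs against 3606.5, 3269 and 3901 in the CD4 cells. A Cd3e UMI was found in 12.2% of the neutrophil-like cells, and the part of T cell transcripts in the background was not tested. This background was 1.33%, 0.224% and 0% for Tnfsf8, 1.0%, 0.447% and 0% for Tnfsf11 and 0.67%, 0% and 0% for Cd40lg, and 0 of the 69 Combination cells allows a share of up to 4.35%. The CD4 shares of these 3 ligands were above it in each library. For Tnfsf9, 3.47%, 5.81% and 5.52% of the CD4 cells held a UMI (9.01%, 15.0% and 14.7% unthinned) against 3.33%, 1.12% and 0% of neutrophil-like cells. The mono-IL-10 share of Tnfsf9 was therefore at about that of the 300 neutrophil-like cells read. Whether those cells express Tnfsf9 themselves was not tested. Tnfsf4, Lta and Cd70 were found in at most 1.98% of thinned CD4 cells in any library. In the Combination this is under the 4.35% that its 0 of 69 cells allows. The shares of these 3 ligands are not set here against the backgrounds of the mono-IL-10 and Trikine libraries.

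**Figure D2:**
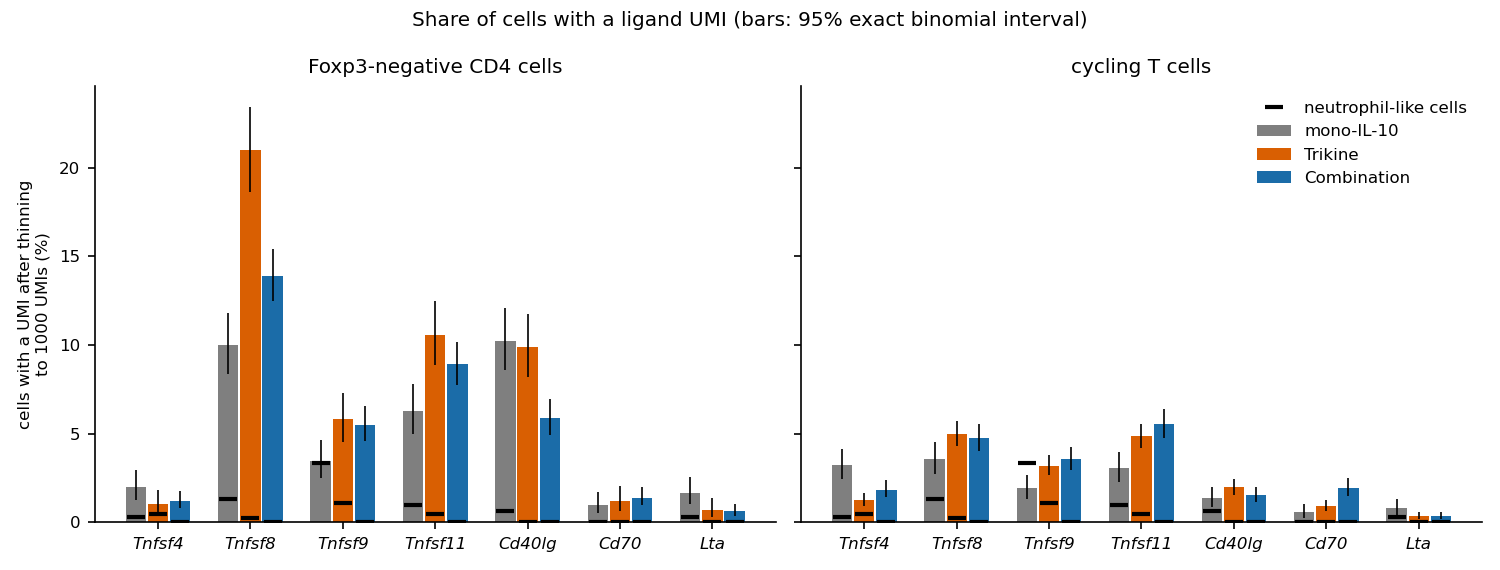
Share of Foxp3-negative CD4 cells (left) and of cycling T cells (right) with a UMI of each ligand after thinning to 1000 UMIs, by library, with exact 95% binomial intervals as thin lines and neutrophil-like cells as black dashes. In Foxp3-negative CD4 cells the Tnfsf8 share is 21.0% in the Trikine library against 9.98% and 13.9% in the others, and the Cd40lg share is lowest in the Combination, at 5.88%.

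A UMI of at least 1 of the 7 ligands was found in 28.0%, 38.0% and 28.5% of thinned Foxp3-negative CD4 cells. The same share was 12.1%, 14.5% and 15.9% in cycling T cells, 10.4%, 10.5% and 10.1% in Foxp3-positive cells, 4.96%, 3.36% and 3.65% in CD8 cells and 2.64%, 2.04% and 4.28% in NK cells. Neutrophil-like cells held 6.33%, 2.24% and 0%, so that the CD8 and NK shares with mono-IL-10 and the NK share with the Trikine were under the background, the CD8 and NK shares of the Combination were under the limit that its 0 of 69 cells allows, and the CD4 shares were above it in every library. At least 2 ligands were found in 5.36%, 10.1% and 7.41% of the CD4 cells. Tnfsf11 was found in 16.5%, 16.5% and 20.2% of the thinned CD4 cells that held Tnfsf8 and in 5.13%, 8.99% and 7.09% of those that did not. Cd40lg was found in 17.4%, 15.7% and 12.4% of the Tnfsf8 cells and in 9.44%, 8.33% and 4.83% of the rest. Both were thus found at a higher share in the CD4 cells that held Tnfsf8 in each library, and these differences were not tested. For Tnfsf11 and Cd40lg themselves the shares were close with mono-IL-10, where Tnfsf11 was in 5.65% (2.30 to 11.3) of Cd40lg cells and 6.34% (4.97 to 7.96) of the others.

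The Trikine and mono-IL-10 libraries were compared to see how adding the IL-2-derived arm to the same IL-10 base was reflected in these ligands. A ratio of CPM was read where the pair of libraries held at least 20 UMIs, which was the case for 27 of 35 member and population pairs, and its interval is an exact conditional binomial one. The Trikine library was at least 1.5-fold higher in 8 of the 27, at least 1.5-fold lower in 7 and within these limits in 12. For 14 of the 15 outside the limits the interval excluded 1. By population, 4.37% to 7.6% of all genes were higher by this limit and 10.3% to 15.9% lower. Over all genes the median log2 ratio lay between -0.13 and -0.07 in the 5 populations, so that a ratio slightly under 1 stands for no shift against the other genes. Tnfsf4 and Lta were lower in each population where a ratio left the limits.

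**Figure D3:**
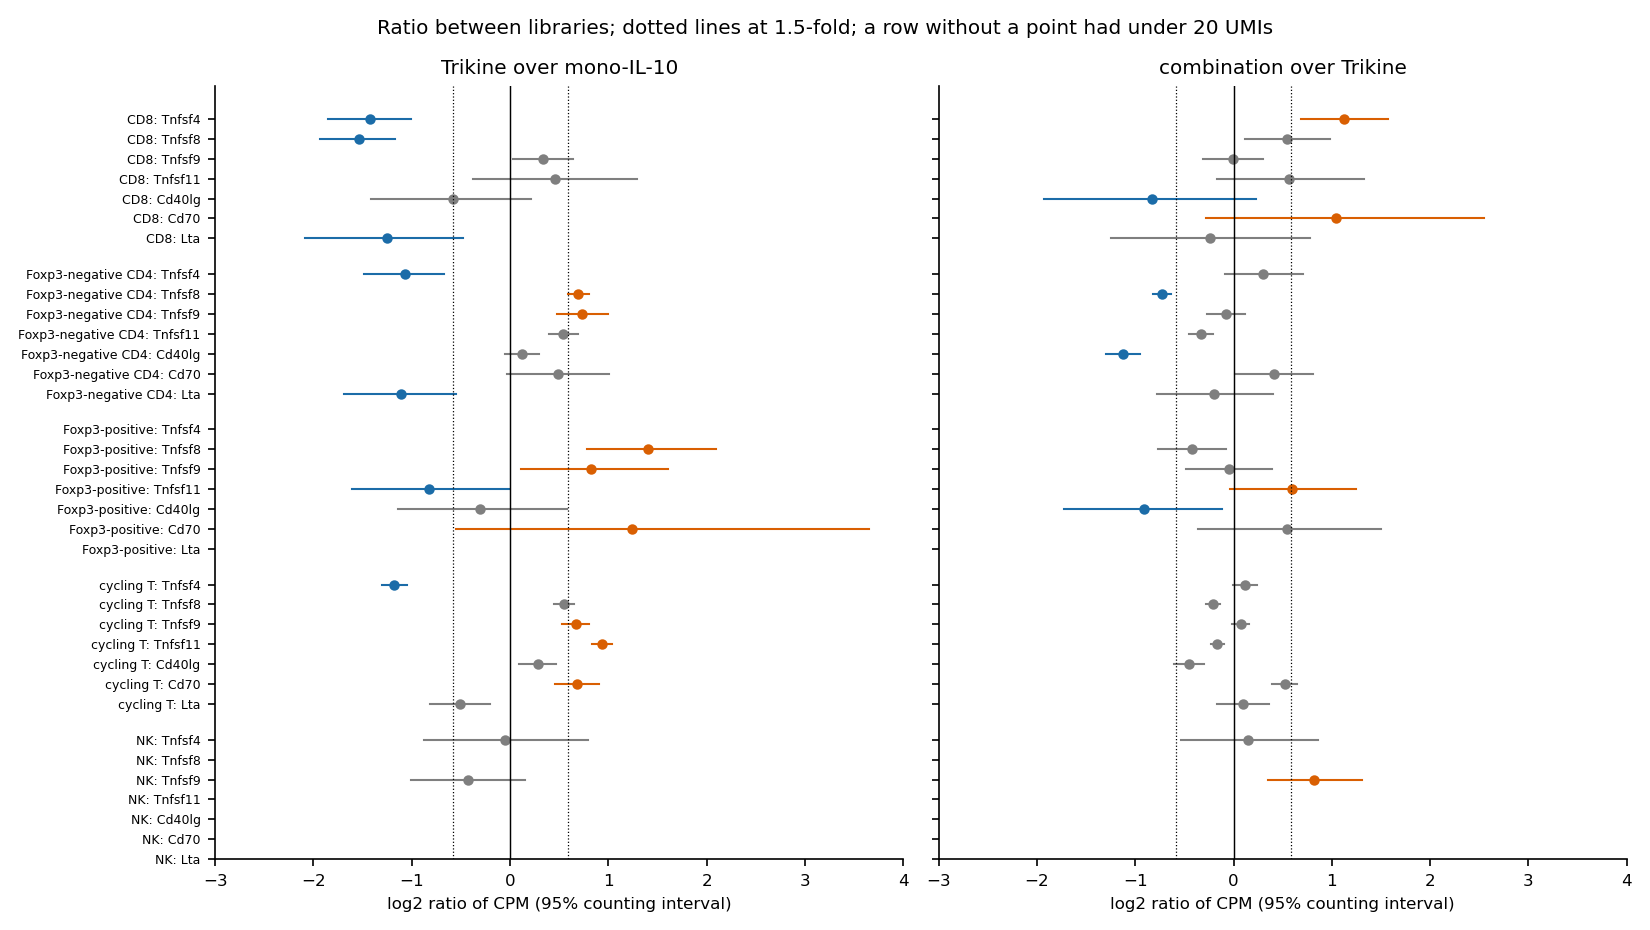
Ratio of the CPM of each ligand between libraries by population, on a log2 axis with dotted lines at 1.5-fold, for the Trikine over mono-IL-10 and for the Combination over the Trikine, with exact 95% intervals as bars. As ratios, Tnfsf4 lies at 0.373 to 0.475 in CD8, Foxp3-negative CD4 and cycling T cells in the first comparison, and Cd40lg lies below 1 in every T cell population in the second.

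In CD8 cells none of the 6 readable members was higher with the Trikine by 1.5-fold, against 4.37% of all genes, and 3 were lower, against 14.1% of all genes. Tnfsf4 was at 0.373 of the mono-IL-10 level (0.276 to 0.496), Tnfsf8 at 0.344 (0.262 to 0.445) and Lta at 0.420 (0.235 to 0.717). The share of CD8 cells with any ligand was under the neutrophil-like background with mono-IL-10, at 4.96% against 6.33%. With the Trikine it was above it, at 3.36% against 2.24%. The Tnfsf8 value rested on cells with a UMI of Ccr7 or Lef1, genes of naive and memory T cells, which were 57.5%, 56.5% and 40.1% of the CD8 cells. In those cells Tnfsf8 had 293, 37 and 76 UMIs, or 34.0, 6.58 and 15.0 CPM, and the ratio was 0.194 (0.134 to 0.273). In the CD8 cells without either UMI it had 30, 35 and 55 UMIs, or 4.94, 8.94 and 8.04 CPM, and the ratio was 1.81 (1.08 to 3.05). The direction of the CD8 Tnfsf8 difference therefore turned with the cells that were read. By cluster, 269 of the 323 Tnfsf8 UMIs of CD8 cells with mono-IL-10 lay in the 568 cells of the Dapl1 cluster, which had 48 CD8 cells with the Trikine. In the CD8 cells of the Cd8a, Cd8b1 and Ccl5 cluster Tnfsf8 had 6, 6 and 8 UMIs. Of the 66 Lta UMIs of CD8 cells with mono-IL-10, 27 lay in the Dapl1 cluster, which had 0 with the Trikine. Lta stood at 2.87 and 1.26 CPM in the Cd8a, Cd8b1 and Ccl5 cluster and at 2.73 and 2.62 in the cluster led by Gm44174, Sidt1 and Fgf13. Its ratio was 0.393 (0.175 to 0.803) in cells with a Ccr7 or Lef1 UMI and 0.460 (0.181 to 1.04) in those without. Tnfsf4 was lower in both parts, at 0.316 (0.164 to 0.567) and 0.397 (0.280 to 0.551), and in the Cd8a, Cd8b1 and Ccl5 cluster it stood at 24.3 CPM (20.5 to 28.6), 5.77 (3.94 to 8.14) and 13.6 (11.0 to 16.7). The 16 macrophage markers summed to 1506, 1997 and 1693 CPM in CD8 cells, highest with the Trikine, and all 16 had a UMI. Of these, C1qa stood at 24.0, 5.45 and 20.7 CPM, the order of libraries of Tnfsf8 and of Tnfsf4, while Lyz2 stood at 8.64, 9.12 and 6.56 CPM. The list includes Ly6c2, which with Cd8b1 and Ccl5 also led a T cell-like cluster at resolution 2, so the sum need not be macrophage RNA. C1qa stood at 24.1, 6.74 and 17.4 CPM in Foxp3-negative CD4 cells and at 15.8, 5.51 and 12.6 CPM in cycling T cells. This was the order of Tnfsf4 there too. Lyz2 stood at 10.6, 7.16 and 7.16 CPM and at 6.03, 7.47 and 6.03 CPM in these populations. The part of macrophage RNA in the Tnfsf4 and Tnfsf8 values was not tested. With cells that held macrophage transcripts left out, none of the member ratios in any population moved outside its interval, although Tnfsf11 in Foxp3-positive cells went from 0.566 to 0.968. Few cells were left out, since 3384, 2659 and 3495 of the 3419, 2663 and 3516 CD8 cells remained. Macrophage RNA spread thinly over the remaining cells was not tested by it. The 14 NK cell markers, several of which cytotoxic T cells also express, summed to 4866, 12866 and 10099 CPM in CD8 cells and to 2138, 5162 and 5961 CPM in Foxp3-negative CD4 cells, while Ncr1 stayed at 4.41 CPM or less in both. Their part in the ligand values was not tested.

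In Foxp3-negative CD4 cells 2 of 7 members were higher, against 6.24% of all genes, and 2 were lower, against 15.9%. Tnfsf8 was 1.62-fold higher (1.5 to 1.75) and Tnfsf9 1.67-fold higher (1.40 to 1.99). Tnfsf11, at 1.46 (1.32 to 1.61), was just inside the limits, and Cd40lg, at 1.09 (0.965 to 1.22), did not differ beyond counting error. Tnfsf4 was lower, at 0.475 (0.357 to 0.627), as was Lta, at 0.464 (0.309 to 0.684). Tnfsf8 came to 1.21 with gates set after thinning to 2000 UMIs, Tnfsf9 to 1.41 in cells gated by their own markers and Lta to 0.761 without the Ccr7 or Lef1 cells, all inside the limits. Within the cluster led by Foxp3, Tnfsf8 and Izumo1r the CD4 cells held Tnfsf8 at 519 CPM (484 to 555), 541 (514 to 570) and 416 (396 to 436), so that the Trikine and mono-IL-10 libraries did not differ beyond counting error there, while the cluster's share of the cells did, as given above. Tnfsf8 is itself a leading gene of that cluster. In the cluster led by Ccl1, Ermn and Csf1 it stood at 54.1 CPM (42.5 to 67.8), 120 (101 to 141) and 104 (95.7 to 114). Tnfsf4 was lower with the Trikine within both clusters, at 41.1 and 17.4 CPM in the first and 41.8 and 17.5 in the second. Tnfsf8 was higher in CD4 cells with a Ccr7 or Lef1 UMI, at 1.38 (1.23 to 1.54), and in those without, at 1.84 (1.66 to 2.04). Cd40lg moved apart between these cells, with 0.712 (0.589 to 0.859) in cells with a Ccr7 or Lef1 UMI and 1.51 (1.28 to 1.79) in the others. The shares of CD4 cells with such a UMI were 48.2%, 34.5% and 28.9%.

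In Foxp3-positive cells 3 of 5 readable members were higher with the Trikine, against 7.6% of all genes, and 1 was lower, against 13.2%. Tnfsf8 was 2.65-fold higher (1.72 to 4.27), Tnfsf9 1.77-fold (1.08 to 3.04) and Cd70 2.36-fold (0.682 to 12.6), and Tnfsf11 was at 0.566 (0.328 to 0.990). The NK cell markers summed to 799, 2152 and 2008 CPM in Foxp3-positive cells and the 11 markers of KP1 tumor cells to 71.3, 160 and 70.4 CPM, and their part in these ratios was not tested. These values rested on few cells. The 24 Tnfsf8 UMIs of the mono-IL-10 library came from 12 cells and the 153 of the Trikine library from 28, with up to 24 UMIs in 1 cell. The thinned share of Foxp3-positive cells with a Tnfsf8 UMI was 2.99% (0.819 to 7.47), 3.49% (1.87 to 5.90) and 2.45% (1.13 to 4.60), or 8.22%, 7.33% and 7.96% unthinned, and these intervals overlapped. Of the 25 Tnfsf11 UMIs with mono-IL-10, 72.0% were in 3 cells, and without the 3 cells that held the most UMIs in each library the ratio was 1.15. When the gates were set on cells thinned to 2000 UMIs, the Tnfsf8 ratio was 1.04. When the cells were gated by their own markers instead of clusters, the Tnfsf9 ratio was 0.890. With the mean of the per-cell CPM in place of the sum, the Cd70 ratio was 0.765, so that each of the 4 members outside the limits lost its call under an alternative.

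Among cycling T cells 3 of 7 members were higher with the Trikine, against 6.22% of all genes, and 1 was lower, against 15.5%. Tnfsf11 was 1.92-fold higher (1.79 to 2.06), Cd70 1.60-fold (1.38 to 1.87) and Tnfsf9 1.59-fold (1.45 to 1.75), the last just outside the limits. Tnfsf8, at 1.46 (1.36 to 1.57), was just inside them. Tnfsf4 was at 0.442 (0.405 to 0.482). With the Klra6 cluster counted as T cell-like, Tnfsf11 came to 1.48, Cd70 to 1.21 and Tnfsf9 to 1.34, inside the limits. In cycling T cells the NK cell markers summed to 4760, 8027 and 6865 CPM and the 18 T cell markers to 8296, 6353 and 7535 CPM, Cd8a stood at 321, 130 and 141 CPM and Ncr1 at 3.41 CPM or less, and the part of these shifts in the ratios was not tested beyond the lineage gates that follow. NK cells had only Tnfsf4, at 0.965 (0.545 to 1.73), and Tnfsf9, at 0.744 (0.499 to 1.11), to compare, and neither left the limits, against 7.26% of all genes higher and 10.3% lower. With NK-like cells that held a Cd3 UMI counted in, Tnfsf4 came to 0.490 and Tnfsf9 to 0.650, both past the lower limit.

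The cycling gate mixed lineages in different proportions, so the ratios were also read within its parts. The part of these proportions in the pooled ratios was not tested. Cells of the CD8 gate were 54.0%, 43.6% and 28.8% of the cycling cells, cells of the Foxp3-negative CD4 gate 19.6%, 24.2% and 35.4%, and Foxp3-positive cells 3.94%, 6.80% and 8.62%. The remaining 22.5%, 25.5% and 27.2% were in none of these gates, and most of them held UMIs of more than 1 lineage (285 of 405, 813 of 1026 and 705 of 916 cells). Within cycling CD4 cells Tnfsf11 stood at 156, 174 and 132 CPM, a Trikine ratio of 1.11 (1.01 to 1.22) against 1.92 in the pool. Cd70 stood at 29.7, 27.3 and 32.9 CPM there, a ratio of 0.918 (0.738 to 1.15) against 1.60. Tnfsf9 stood at 53.6, 55.6 and 56.4 CPM, a ratio of 1.04 (0.884 to 1.22) against 1.59. The pooled differences of Cd70 and Tnfsf9 were thus not seen in the CD4 cells of the pool. That of Tnfsf11 was much smaller there, with an interval that excluded 1. Within cycling CD8 cells Tnfsf11 and Tnfsf9 kept higher values with the Trikine, at 1.75 (1.24 to 2.52) and 1.73 (1.45 to 2.09), from 3.94 and 14.2 CPM, while Cd70 was at 0.990 (0.631 to 1.58). Within cycling Foxp3-positive cells the Tnfsf11 ratio was 2.08 (1.41 to 3.17), from 29 and 248 UMIs. The cells in none of the gates held 39.7% of the pool's Tnfsf11 UMIs with the Trikine, 42.7% of Cd70 and 38.0% of Tnfsf9, and their ratios were 1.89 (1.68 to 2.14), 1.84 (1.41 to 2.44) and 1.60 (1.36 to 1.89), close to those of the pool. Tnfsf4 was the ligand whose difference was of like size in the pool and its main lineages, at 0.398 (0.334 to 0.476) in cycling CD4 cells and 0.425 (0.371 to 0.487) in cycling CD8 cells, although 3 and 44 UMIs in cycling Foxp3-positive cells went the other way.

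**Figure D4:**
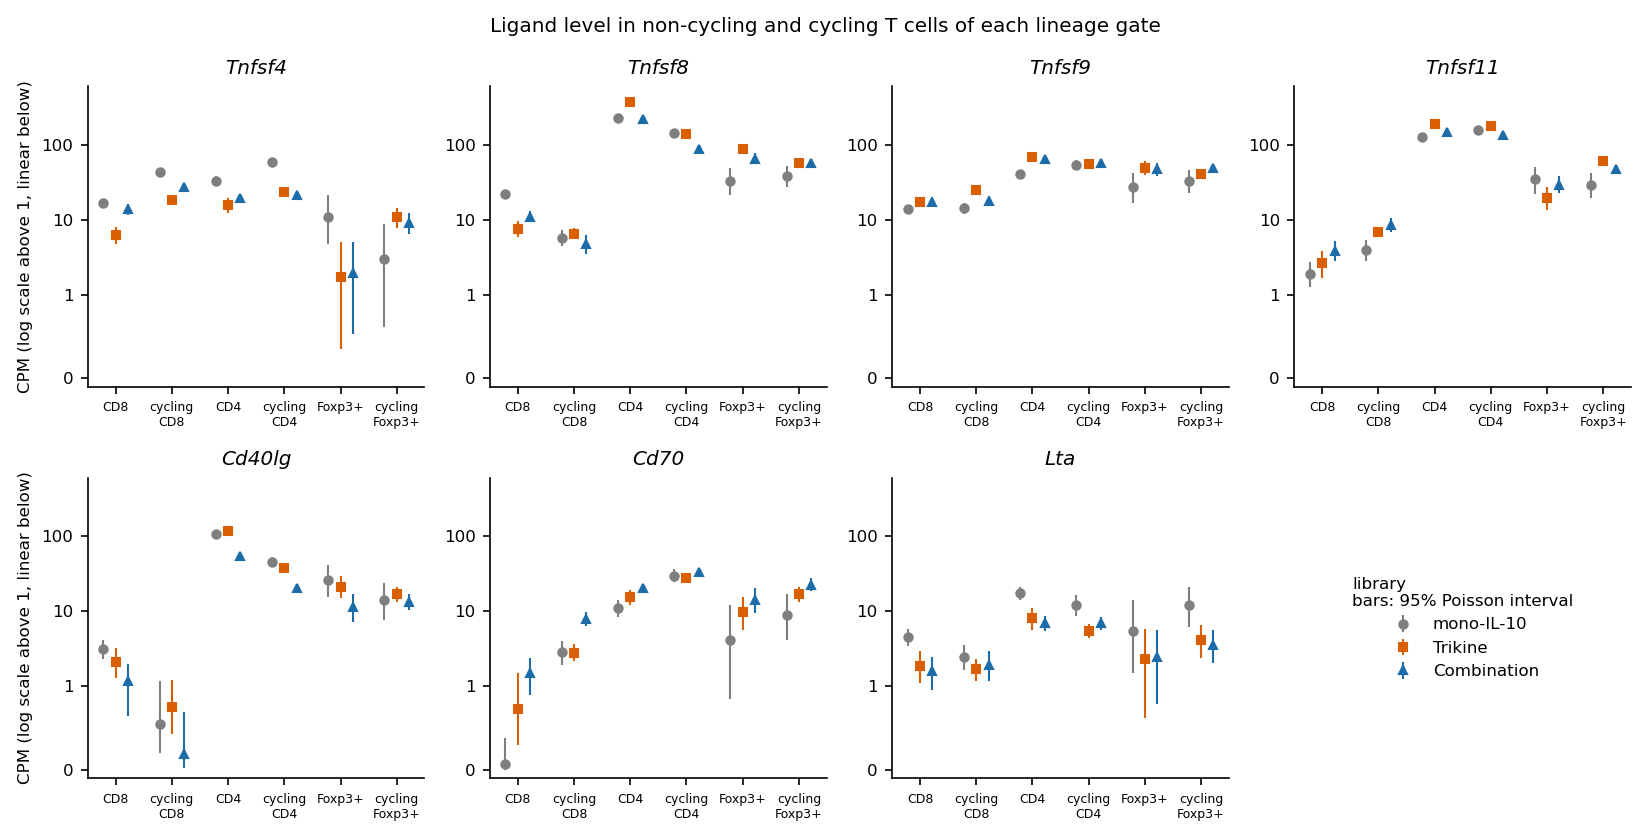
Level of each ligand in cycling cells of the CD8, Foxp3-negative CD4 and Foxp3-positive gates beside non-cycling cells of the same gates, in CPM with 95% Poisson intervals as bars. Cd40lg and Tnfsf8 are lower in cycling than in non-cycling CD4 cells in every library, and Cd70 is higher.

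Cycling and non-cycling cells of the same gate were set side by side within each library, since both come from the same tumors. In CD4 cells Cd40lg was lower in cycling cells, with ratios of 0.421 (0.350 to 0.504), 0.323 (0.287 to 0.364) and 0.377 (0.328 to 0.432). Tnfsf8 was lower too, at 0.628 (0.564 to 0.698), 0.371 (0.348 to 0.396) and 0.395 (0.370 to 0.422). Cd70 went the other way, at 2.70 (1.94 to 3.8), 1.77 (1.38 to 2.31) and 1.62 (1.38 to 1.90). Tnfsf11 differed little between cycling and non-cycling CD4 cells, with ratios of 1.23, 0.938 and 0.895. In CD8 cells Tnfsf4 was higher in cycling cells, at 2.57 (2.20 to 3.01), 2.93 (2.23 to 3.91) and 1.96 (1.61 to 2.39). Tnfsf11, low as it was in CD8 cells, was also higher there, at 2.07, 2.63 and 2.19. The cycling cells were deeper by the medians given above, CPM divide by that depth, and the part of depth in these ratios was not tested.

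The Combination and Trikine libraries, which differed by the antibody against PD-1, were compared in the same way. Of 28 readable pairs, 4 were at least 1.5-fold higher in the Combination, 4 at least 1.5-fold lower and 20 within these limits, and the interval excluded 1 for 5 of the 8. By population, 6.45% to 9.02% of all genes were higher by this limit and 4.18% to 6.38% lower. The all-gene median log2 ratio was between -0.00 and 0.03. Both comparisons share the Trikine library, so a high or low value in it enters both.

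In CD8 cells 2 of 7 members were higher in the Combination, against 9.02% of all genes, and 1 was lower, against 4.18%. Tnfsf4 was 2.18-fold higher (1.61 to 2.98), from 60 to 163 UMIs, and Cd70 2.06-fold (0.822 to 5.84), from 7 to 18 UMIs. With gates set after thinning to 2000 UMIs these ratios were 1.35 and 1.13, inside the limits. Tnfsf4 was at 3.81 (2.07 to 7.49) in CD8 cells with a Ccr7 or Lef1 UMI, from 14 to 48 UMIs, and at 1.43 (1.01 to 2.06) in those without. Cd40lg was at 0.561 (0.262 to 1.17), from 20 to 14 UMIs, and 65.0% of the 20 came from 3 cells. Without the 3 cells with the most UMIs in each library its ratio was 1.14. In Foxp3-negative CD4 cells no member was higher, against 6.54% of all genes, and 2 were lower, against 4.9%. Cd40lg was at 0.458 (0.407 to 0.515) and Tnfsf8 at 0.603 (0.567 to 0.642). The Tnfsf8 ratio was 0.85 with gates set after thinning to 2000 UMIs, inside the limits. It was also inside them within the cluster led by Foxp3, Tnfsf8 and Izumo1r, at 0.767 (0.715 to 0.823), and within that led by Ccl1, Ermn and Csf1, at 0.868 (0.721 to 1.05), while the share of CD4 cells in the first was lower in the Combination, as given above. Tnfsf11 was at 0.796 (0.732 to 0.865), inside the limits. Cd40lg was lower in CD4 cells with a Ccr7 or Lef1 UMI, at 0.571 (0.463 to 0.705), and in those without, at 0.402 (0.348 to 0.465), and the difference between them was not tested. In the cluster led by Foxp3, Tnfsf8 and Izumo1r the Cd40lg levels of the Trikine and Combination libraries were 148 and 73.3 CPM, and their ratio was 0.494 (0.424 to 0.576). In the cluster led by Ccl1, Ermn and Csf1 it stood at 54.2 and 42.4 CPM, a ratio of 0.782 (0.591 to 1.05), which was inside the limits.

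In Foxp3-positive cells Tnfsf11 was higher, at 1.51 (0.976 to 2.37), which made 1 of 5 against 6.45% of all genes, and Cd40lg was lower, at 0.532 (0.302 to 0.920), which made 1 of 5 against 5.35%. With the cycling gate at 5 UMIs the Cd40lg ratio was 0.685. With gates set after thinning to 2000 UMIs the Tnfsf11 ratio was 0.936. Among cycling T cells no member was higher, against 6.59% of all genes, and none was lower, against 4.73%, with Cd70 highest at 1.43 (1.31 to 1.57) and Cd40lg lowest at 0.731 (0.658 to 0.811). Within cycling CD8 cells Cd70 was 2.81-fold higher (1.99 to 3.99), from 60 to 83 UMIs, and within cycling CD4 cells Cd40lg was at 0.534 (0.465 to 0.613). In NK cells Tnfsf9 was 1.76-fold higher (1.27 to 2.47), the only member of 2 outside the limits, against 6.72% of all genes higher and 6.38% lower. The share of NK cells with any ligand was under the background with mono-IL-10 and with the Trikine, as given above. In the Combination it was 4.28%, against 0% of 69 neutrophil-like cells and under the limit that those cells allow. Over mono-IL-10, Trikine and Combination the macrophage gene C1qa stood at 15.2, 9.12 and 21.4 CPM in NK cells, the order of Tnfsf9. Lyz2 stood at 8.63, 10.6 and 6.83 CPM, another order, and their part was not tested. The Cd40lg ratio was thus under 1 in the Foxp3-negative CD4, Foxp3-positive and cycling T cells with intervals that excluded 1, by less than 1.5-fold in the cycling cells, while the CD8 value turned with 3 cells.

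Foxp3-negative CD4 cells were split by a UMI of Lag3, an inhibitory receptor of activated T cells, found in 36.2%, 38.4% and 56.0% of them. Tnfsf8 was lower in the Lag3-positive cells of each library, at 0.457 (0.402 to 0.518), 0.603 (0.545 to 0.666) and 0.395 (0.364 to 0.428) of the level in Lag3-negative cells. Cd40lg was lower as well, at 0.306 (0.248 to 0.375), 0.486 (0.403 to 0.584) and 0.50 (0.424 to 0.590). Tnfsf4 was higher, at 1.92 (1.40 to 2.65), 3.04 (1.79 to 5.36) and 1.54 (1.11 to 2.16). Lag3-positive cells were deeper, with a median of 4758, 3942.5 and 4741 UMIs against 3187.5, 2919 and 3015, and the part of depth was not tested. The lower Cd40lg of the Combination was seen in Lag3-positive cells, at 0.539 (0.444 to 0.656) of the Trikine level, and in Lag3-negative cells, at 0.524 (0.448 to 0.612). The Tnfsf8 ratio was further from 1 in Lag3-positive cells, at 0.542 (0.491 to 0.60), than in Lag3-negative ones, at 0.829 (0.765 to 0.898), and this difference was not tested.

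A UMI of both Pdcd1 and Icos, genes of antigen-experienced and follicular helper CD4 cells, was found in 28.6%, 44.4% and 56.2% of the Foxp3-negative CD4 cells. In the mono-IL-10 library Tnfsf11 was 2.30-fold higher in these cells than in the rest (1.97 to 2.70), Tnfsf4 2.50-fold (1.82 to 3.45), Tnfsf9 2.08-fold (1.58 to 2.76) and Cd70 2.72-fold (1.55 to 4.88), while Cd40lg was at 0.473 (0.387 to 0.576). These ratios lay closer to 1 with the Trikine, a difference that was not tested, where Tnfsf11 was at 1.35 (1.18 to 1.55), Tnfsf9 at 1.12 (0.892 to 1.40) Tnfsf4 at 1.14 (0.706 to 1.87), Cd70 at 1.77 (1.07 to 2.99) and Cd40lg at 0.969 (0.817 to 1.15). In the Combination Tnfsf4 was at 1.49 (1.09 to 2.09), Tnfsf9 at 1.34 (1.13 to 1.59) and Cd70 at 1.37 (1.01 to 1.87), with intervals above 1, while Tnfsf11 was at 1.08 (0.970 to 1.20) and Cd40lg at 0.897 (0.755 to 1.07). For the Trikine over mono-IL-10, Tnfsf4 was at 0.322 (0.219 to 0.465) in cells with both UMIs. In the rest it was at 0.703 (0.448 to 1.08), inside the limits. Tnfsf9 was at 1.20 (0.949 to 1.53) and 2.24 (1.71 to 2.94) in the same order. Tnfsf8 was at 1.46 (1.31 to 1.63) and 1.74 (1.57 to 1.93), and Lta at 0.630 (0.340 to 1.15) and 0.379 (0.208 to 0.656). The differences between these parts were not tested. Cells with both UMIs had a median of 4804, 3861 and 4685 UMIs against 3275, 2921 and 3198 in the rest, and the part of depth was not tested.

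The 5 populations did not hold all of a ligand's UMIs. Among cells that passed the filters they held 52.8%, 58.5% and 66.7% of Tnfsf4, 51.3%, 64.0% and 70.3% of Tnfsf8, and 54.8%, 67.7% and 80.1% of Tnfsf11. For Tnfsf9 the shares were 18.2%, 43.6% and 50.4%, the lowest of the 7 in each library. Monocyte/macrophage-like cells held 56.8%, 27.8% and 31.5% of the Tnfsf9 UMIs, at 44.3, 43.8 and 37.8 CPM. This class includes a cluster of 3088 cells in which 84.5% held a Cd3e UMI and 96.8% a C1qa UMI, so that most of its barcodes carry transcripts of both lineages. Without that cluster the class held 44.8%, 19.7% and 24.8% of the Tnfsf9 UMIs, at 51.1, 44.9 and 38.1 CPM. An unnamed cluster led by Mgl2, Timd4 and Flt3 held 15.5%, 13.8% and 4.92% of them, at 138, 82.4 and 61.3 CPM, above the Foxp3-negative CD4 cells of the mono-IL-10 and Trikine libraries and not of the Combination. B cell-like cells held 14.5% of Lta in the mono-IL-10 library and 0.493% and 0% in the others, which had 175 and 246 such cells against 1563.

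**Figure D5:**
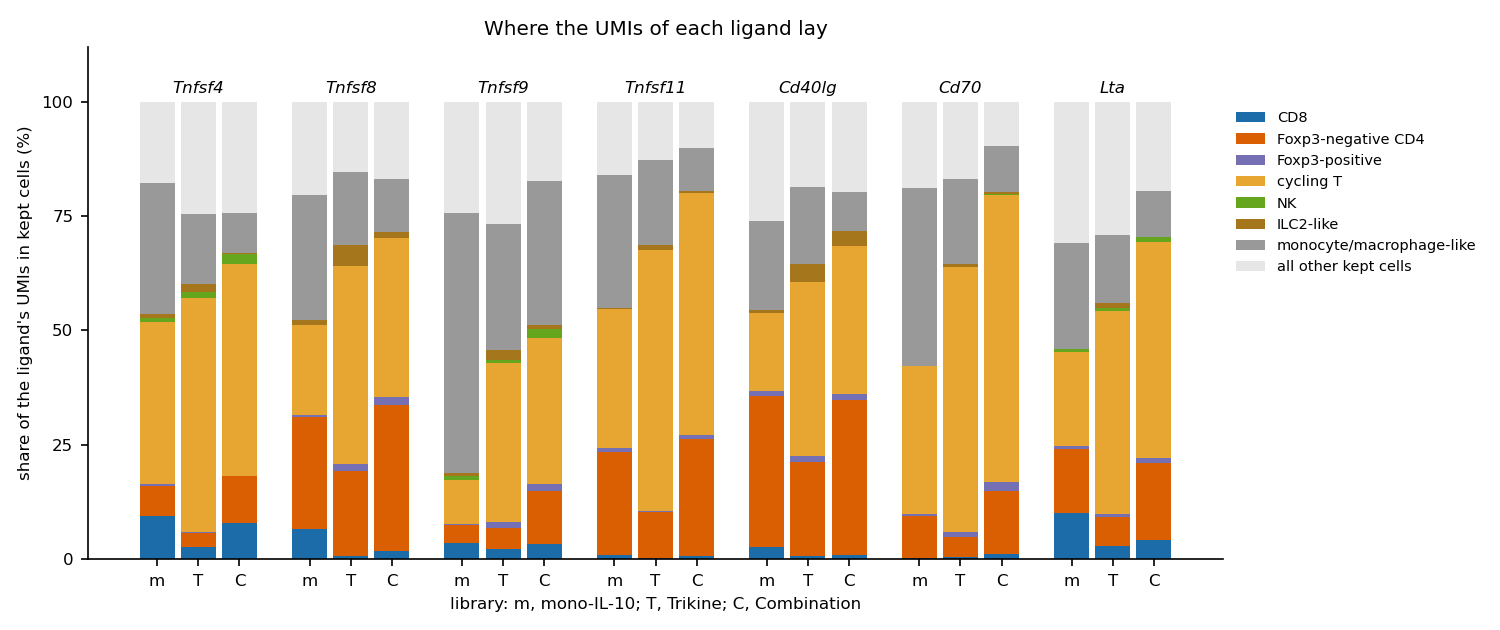
Share of each ligand's UMIs found in each population or cell class of a library, among cells that passed the filters, as stacked percentages. Cycling T cells hold more of every ligand in the Trikine and Combination libraries than with mono-IL-10, and monocyte/macrophage-like cells hold the largest share of Tnfsf9 with mono-IL-10, at 56.8%.

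The receptors of these ligands were read from a list of 11 genes in the same populations. With the Trikine, Tnfrsf4 (OX40) was at 268 and 499.6 CPM in Foxp3-negative CD4 cells, a ratio of 1.87 (1.75 to 1.99), and Tnfrsf9 (4-1BB) at 260.0 and 500.5 CPM, a ratio of 1.92. Tnfrsf1a, the TNF receptor with a death domain, was lower there, at 0.440. These were 2 receptors higher and 1 lower of 8 readable in CD4 cells, against 6.24% and 15.9% of all genes, while in cycling T cells 2 were higher and 5 lower of 9, against 6.22% and 15.5%. The latter included Cd27, the receptor of CD70, at 175 and 101 CPM, a ratio of 0.576, opposite to Cd70 in the same pool. Tnfrsf8, the receptor of CD30 ligand, was low, at 3.60 and 4.0 CPM in CD4 cells, and Tnfrsf11a, the receptor RANK, held at most 13 UMIs in any of the populations. In the Combination Tnfrsf4 was at 338 CPM against 206 in cycling T cells, a ratio of 1.64, Tnfrsf9 at 569 against 361, a ratio of 1.58, and Cd27 at 154 against 101, a ratio of 1.53, which were among 4 receptors higher and none lower of 9 readable, against 6.59% and 4.73% of all genes. No receptor left the limits in CD8 or CD4 cells in that comparison.

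Of 11 other ligands of the family, Tnf and Tnfsf14 went with Tnfsf4 and Lta. Tnf itself was at 14.7 and 3.88 CPM in CD8 cells of the mono-IL-10 and Trikine libraries, a ratio of 0.264, and at 42.1 and 19.8 CPM in CD4 cells, a ratio of 0.470. Tnfsf14, which encodes LIGHT, was at 0.385 in CD8, 0.218 in CD4 and 0.346 in cycling T cells. Of the readable ligands, 3 of 7 were lower in CD8, 3 of 6 in CD4, 3 of 7 in cycling T and 3 of 6 in NK cells, and 1, 0, 1 and 0 were higher. Of all genes, 14.1%, 15.9%, 15.5% and 10.3% were lower in these populations and 4.37%, 6.24%, 6.22% and 7.26% higher. In Foxp3-positive cells none of 4 readable ligands was lower, against 13.2% of all genes, and 1 was higher, against 7.6%. In the Combination Tnf was at 10.3 CPM in CD8 cells, 2.64 times the Trikine level. Of 16 TRAF and NF-kB genes, 6 were lower in NK cells with the Trikine, against 10.3% of all genes, among them Nfkbia at 0.519 and Tnfaip3 at 0.521, and 6 were higher in the Combination, against 6.72% of all genes, among them Nfkb2 at 1.79. In Foxp3-negative CD4 cells none of the 16 left the limits in either comparison. Of 14 T cell activation genes, 1 was higher and 7 were lower in CD4 cells with the Trikine, against 6.24% and 15.9% of all genes. The extremes were Il2ra, the IL-2 receptor alpha chain, at 3.75, and Egr2, an immediate early gene, at 0.215.

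The genes most like a ligand over the 15 population and library levels were listed by Pearson correlation of log2(CPM + 1) among 10983 genes. The 15 values share libraries and depth, so that the correlations describe these values only. For Tnfsf8 they were Epas1 (0.97), Cd40lg (0.96) and Galm (0.95), and for Cd40lg they were Csgalnact1 (0.96), Tnfsf8 (0.96) and Il21 (0.96). Tnfsf11 was nearest to Itpr1, Dclk1 and Gm49180 (each 0.97), and Cd70 to Scin (0.98), Marcksl1 (0.96) and Fdx1 (0.96). Tnfsf9 was nearest to Dennd5a (0.93) and Lta to Npas2 (0.96).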

How the data were processed

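Cells sorted from tumors as live CD45+ were sequenced in 3 libraries, 1 per group, grouped by the treatment labels. The deposited matrices hold raw UMI counts per gene and barcode, empty droplets included. Per the submitters' processing notes the authors made them with Cell Ranger and mm10, while the paper's methods name another reference and count introns, so no gene coordinates are taken from the files. Cells with 200 or more genes and no more than 20% of UMIs from mitochondrial genes entered the analysis and were clustered together (scanpy 1.11.5, 2000 variable genes, 30 principal components, 20 neighbors, leidenalg 0.10.2 at resolution 1). T cell-like clusters were gated per cell, without overlap, into cycling T (2 or more UMIs of Mki67 plus Top2a), then Foxp3-positive (a Foxp3 UMI, no Cd8a or Cd8b1), CD8 (a UMI of Cd8a or Cd8b1, no Cd4 or Foxp3) and Foxp3-negative CD4 (a Cd4 UMI, no Cd8a, Cd8b1 or Foxp3). NK cells were NK-like clusters without a Cd3 UMI. Counts were summed per population and library and divided by the population's total to give CPM. Intervals are exact at 95% (Poisson, Clopper-Pearson or conditional binomial, scipy 1.17.1, Python 3.11.15) and cover counting error only. With 1 replicate per group no test was run. A fold of 1.5 with at least 20 UMIs in the pair set the limits. Shares of cells were read after thinning to 1000 UMIs, which left out 10 to 229 shallower cells per population and library. Scrublet called 14.4%, 16.8% and 4.09% of the cells doublets, which were kept and removed as an alternative. The sums and intervals were run on simulated independent counts as a check of the code. Those counts lacked the gathering of UMIs in few cells seen here, so they cannot show the coverage in these data.

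The members and gene lists were chosen with earlier results of these data known. The text names the 7 members, the receptors, the other ligands, the 2 highest and 2 lowest ratios of the TRAF and NF-kB and the activation lists in a population, and genes from the 3 most like a member, a part of which is not reported here. The split by Ccr7 or Lef1 within populations, the levels within clusters and the marker sums of other cell types were added after the data were seen. Alternatives included TMM scaling (edgeR 4.0.16, R 4.3.3) and other gates, given in the closing section. No columns of other samples were in the files.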

Additional observations from a re-analysis of the deposited data

Results flagged for a closer look

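Tnfsf8 and Tnfsf11 went opposite ways between populations in the comparison of the Trikine with mono-IL-10. The ratio of CPM of Tnfsf8 was 0.344 in CD8 cells, 1.62 in Foxp3-negative CD4 cells and 2.65 in Foxp3-positive cells. For Tnfsf11 it was 0.566 in Foxp3-positive cells and 1.92 in cycling T cells. With 1 library per group these differences between populations were not tested. The CD8 value of Tnfsf8 was 1.81 in cells without a Ccr7 or Lef1 UMI, and the Foxp3-positive value of Tnfsf11 was 1.15 without the 3 cells with the most UMIs. Within the cluster led by Foxp3, Tnfsf8 and Izumo1r the Foxp3-negative CD4 cells held Tnfsf8 at 519 CPM with mono-IL-10 and 541 with the Trikine.

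ILC2-like cells, a small class outside the 5 populations named from Gata3, Rora, Il1rl1, Areg, Il13 and Il5, held higher levels of 3 ligands, in CPM, than any of the 5 populations in each library. Tnfsf8 stood at 253 CPM with mono-IL-10, 486 with the Trikine and 367 in the Combination, from 49, 446 and 88 UMIs. Its interval with mono-IL-10 (187 to 334) held the level of the Foxp3-negative CD4 cells. Tnfsf9 stood at 160.1, 159 and 192 CPM, from 31, 146 and 46 UMIs, and Tnfsf4 at 103.3, 41.4 and 20.9 CPM, from 20, 38 and 5 UMIs, where the Combination value (6.78 to 48.7) did not differ beyond counting error from the 20.8 CPM of cycling T cells. The class had 37, 138 and 37 cells. Of its cells, 37.3% held a Cd3e UMI and 31.1% a Cd4 UMI, and the part of T cell transcripts in these levels was not tested.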

How the results depend on the processing

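No paired analysis was possible because each group is 1 library. Over 17 alternatives, 929 member ratios were recomputed: 145 of these were identical to the reported ratio, because the alternative did not touch those cells or only raised the UMI minimum. Of the other 784, 677 lay inside the interval of the reported ratio and 107 outside it. Across both, 6 that had been outside the limits turned direction, 2 of them inside their wide intervals. The 6 were Tnfsf9 in Foxp3-positive cells at 0.890 (cells gated by their own markers), Tnfsf11 in Foxp3-positive cells, Combination over Trikine, at 0.936 (gates after thinning to 2000 UMIs), Tnfsf8 in CD8 cells at 1.81 (Ccr7 or Lef1 cells left out), Cd70 in Foxp3-positive cells at 0.765 (mean of per-cell CPM), and, without the 3 cells with the most UMIs of a ligand, Tnfsf11 in Foxp3-positive cells at 1.15 and Cd40lg in CD8 cells, Combination over Trikine, at 1.14. The cause was not tested. Of the 23 ratios outside the limits, 6 stayed outside them under every alternative run (Tnfsf4 in 3 populations and Lta in CD8 cells with the Trikine, Cd40lg in Foxp3-negative CD4 and Tnfsf9 in NK cells of the Combination) and 17 came inside under at least 1. With mono-IL-10 the share of CD8 cells with any ligand was under the neutrophil-like background, as given above. Higher pairs with the Trikine numbered 5 instead of 8 with lineage gates at 2 UMIs, lower pairs 11 instead of 7 with all NK-like cells, and with gates after thinning to 2000 UMIs the Combination had 1 higher and 2 lower pairs instead of 4 and 4. The shares of all genes given above hold for the main setting only. Tnfsf4 stayed lower with the Trikine by 1.5-fold or more in each alternative that changed its value (15, 15 and 14 in the order that follows), at 0.327 to 0.521 in CD8, 0.416 to 0.608 in Foxp3-negative CD4 and 0.393 to 0.491 in cycling T cells. The split of CD4 cells by Pdcd1 and Icos was not among these alternatives. In CD4 cells without both UMIs Tnfsf4 was at 0.703, inside the limits. Tnfsf8 in Foxp3-negative CD4 cells ranged from 1.21 to 1.84 and was past 1.5-fold in 13 of the 15 that changed it, and in Foxp3-positive cells from 1.04 to 4.19. Tnfsf11 in cycling T cells ranged from 1.48 to 2.22. The share of cells with any ligand was 18.5%, 26.3% and 18.3% in Foxp3-negative CD4 and 6.31%, 8.46% and 9.43% in cycling T cells when thinned to 500 UMIs, and 49.3%, 60.4% and 51.8%, and 42.7%, 53.9% and 54.2%, with no thinning, because fewer or more UMIs were read per cell. Leaving out the 3 cells and counting the Klra6 cluster as T cell-like were added after the data were seen. Members under 20 UMIs in a pair could not be compared at this depth.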

Other observations

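Non-cycling cells of T cell-like clusters that fell in no lineage gate (1655, 1553 and 2684 cells, of which 271, 306 and 621 held UMIs of more than 1 lineage and the others no UMI of a lineage gene) held Tnfsf9 at 19.2, 42.0 and 46.5 CPM and Cd40lg at 74.5, 48.0 and 30.8, between the CD8 and the Foxp3-negative CD4 levels of each library, and Tnfsf4 at 26.8, 7.48 and 11.4. In the cluster led by Klra6, Klra5 and Trgc4, Tnfsf4 stood at 26.7, 11.1 and 24.3 CPM, and Tnfsf8 at 24.5, 10.1 and 16.1, both lowest with the Trikine. Tnfrsf11b, which encodes the decoy receptor of RANKL, was found in NK cells with 1, 24 and 42 UMIs and in the 4 T cell populations with at most 2 UMIs in any library.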
